A study of Mus musculus with 18 samples.

Results

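Some lipid droplet genes were among the most changed genes in livers of db/db mice treated with recombinant mouse serum albumin (rMSA). Cidea, Cidec and Plin2 rose 656-fold, 46.0-fold and 7.10-fold in mean level, the perilipin Plin5 and the triglyceride lipase Pnpla2 fell, and Plin2 also rose in AML12 hepatocytes treated with rMSA, with and without insulin. The genes described here are 10 that encode proteins of the lipid droplet and of its lipolysis: Cidea, Cideb, Cidec, Plin2, Plin3, Plin4, Plin5, Pnpla2, G0s2 and Pnpla3. They were chosen by gene symbol, not by a measured value, from the 17855 genes that the 2 tables of the series hold between them, and all 10 had a row among the 16533 genes of the liver table. In the AML12 table of 15579 genes 9 had a row, and Cidea was not analysed there.

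The liver libraries came from 3 rMSA-treated and 3 saline-treated male db/db mice (B6.Cg-dock7m Leprdb/++/J), leptin receptor mutants that become obese and diabetic and serve as a model of type 2 diabetes. The treated mice had 1.5 mg of rMSA per g of body weight in each of 3 intravenous injections given 3 weeks apart over 9 weeks, and no source used here gives their age. AML12, a mouse hepatocyte line, was kept in serum-free medium overnight and then for 24 h with rMSA (600 μM) + insulin (10 nM), rMSA (600 μM), insulin (10 nM) or vehicle, with 3 libraries each. No source says that these 12 libraries came from separate cultures, so their p-values measure only the spread between the libraries, which may be technical.

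A lipid droplet is a store of triglyceride and cholesterol ester under a single layer of phospholipid, and the proteins on that layer decide how the store grows and how it is broken down. Perilipins coat the droplet and limit the access of lipases, CIDE proteins gather where droplets touch and let lipid pass into the larger one, and Pnpla2 (adipose triglyceride lipase, ATGL) takes the first fatty acid off a triglyceride, helped by Abhd5 and held back by G0s2. In a healthy liver Cideb is the main CIDE gene, whereas Cidea and Cidec belong to fat tissue and become expressed in fatty liver.

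Plin3, Plin4 and Plin5 lie near each other on chromosome 17 of GRCm38, where Plin4 (56100587 to 56109948), Plin5 (56111597 to 56117606) and Plin3 (56278962 to 56290511) are on the minus strand and Plin4 and Plin5 are 1.65 kb apart. The others lie apart from them: Cideb on chromosome 14 (55754052 to 55758424), Cidec on chromosome 6 (113424634 to 113435760), Plin2 on chromosome 4 (86626910 to 86670217), Pnpla2 on chromosome 7 (141455188 to 141460743), G0s2 on chromosome 1 (193272160 to 193273188) and Pnpla3 on chromosome 15 (84167776 to 84189521). RefSeq listed a promoter window (250 bases before to 50 after a start, GRCm38.p6) for 9 of the 10 genes, and 4 are shown up to the start or the first annotated exon: Plin2, which rose in liver and cells, Cidec, which rose most among the genes with a window, and Plin5 and Pnpla2, which fell in the liver. They are Plin2 at chr4:86670061-86670309, Cidec at chr6:113435761-113436010 and Plin5 at chr17:56117597-56117798 on the minus strand, and Pnpla2 at chr7:141454938-141455187 on the plus strand. Capitals mark AGGTCA, the core that many nuclear receptors bind, and GGGCGG, the GC box, on either strand.
Plin2: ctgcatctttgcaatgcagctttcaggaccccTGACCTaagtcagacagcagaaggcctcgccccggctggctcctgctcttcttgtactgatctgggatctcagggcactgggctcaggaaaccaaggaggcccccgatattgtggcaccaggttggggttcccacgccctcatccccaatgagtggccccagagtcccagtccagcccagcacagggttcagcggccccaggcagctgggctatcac
Cidec: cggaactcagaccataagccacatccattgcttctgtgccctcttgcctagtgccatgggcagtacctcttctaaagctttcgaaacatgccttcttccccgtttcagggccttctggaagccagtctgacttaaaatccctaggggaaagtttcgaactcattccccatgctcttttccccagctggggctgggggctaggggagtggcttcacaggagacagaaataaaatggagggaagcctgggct
Plin5: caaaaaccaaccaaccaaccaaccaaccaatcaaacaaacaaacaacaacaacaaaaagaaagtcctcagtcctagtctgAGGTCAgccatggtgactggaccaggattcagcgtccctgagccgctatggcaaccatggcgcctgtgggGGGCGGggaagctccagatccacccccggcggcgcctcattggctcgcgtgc
Pnpla2: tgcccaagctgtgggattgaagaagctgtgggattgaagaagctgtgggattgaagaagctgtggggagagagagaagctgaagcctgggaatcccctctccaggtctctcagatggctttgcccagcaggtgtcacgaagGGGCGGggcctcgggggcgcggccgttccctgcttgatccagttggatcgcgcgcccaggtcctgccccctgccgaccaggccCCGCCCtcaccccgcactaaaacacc

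Both perilipins shown held 1 AGGTCA in the window shown, Plin2 at 218 and Plin5 at 170 bases before the start, and 16.3% of all 32851 windows hold one. The 9 genes had 11 windows, since Cidec and Plin5 each had a second one that is not shown. The second Plin5 window held 1 AGGTCA, at base 14 after its start. No window of the 9 genes held 2 copies of AGGTCA 1 base apart, the repeat bound by PPAR receptors, which 0.0396% of all windows hold. GGGCGG was found in the windows of Pnpla2, Plin5, Plin2, Pnpla3, Plin3, Cideb and G0s2, and in 35.7% of all windows. CACGTG, the E-box, was found only at the start of Plin2 (7.15% of all windows), TATAAA only in Cideb (13.6% of all windows) and TCACNCCAC, the sterol element, in no window of the 9 genes (1.24% of all windows). Both strands were searched, and the only matches that overlapped were 2 GC boxes in Plin3. A match is a description of the letters and not of a bound site.

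Levels are in TPM, a unit scaled for transcript length and to a common total in each library, so genes can be compared within a library. The depth behind them is unknown. The summed level of 6 hepatocyte markers was 70731 to 75771 TPM in rMSA livers and 53174 to 69739 TPM in saline livers. In AML12 cells it was 168 to 295 TPM with rMSA + insulin, 179 to 231 TPM with rMSA, 275 to 431 TPM with insulin and 292 to 366 TPM with vehicle, with Cps1 at 0 in each group except insulin, while 3 cholangiocyte markers summed to 1243 to 2192 TPM. The labelled cell type of the line was thus not matched by a high sum of these hepatocyte markers. Among them Hnf4a was at 51.04 to 132.17 TPM in AML12 libraries and 210.95 to 549.21 TPM in livers. Hnf4a was higher in each rMSA library than in each vehicle library, but did not pass in limma (0.16, adjusted p = 0.844). The rMSA libraries did not overlap the vehicle libraries in the hepatocyte sum. Ttr, 1 of 4 markers tested, fell with rMSA against vehicle (-1.73, adjusted p = 0.00327). It also fell with rMSA + insulin against insulin (-1.29, adjusted p = 0.0103, or -1.35 without insulin libraries 1 and 2). The part of this difference in the AML12 results was not tested. Insulin libraries 1 and 2 stood apart from the other 10: tested genes had a median of 14.6 and 11.2 TPM in them, against 16.2 to 22.6 TPM, and ribosomal protein genes made up 33.6% and 36.3% of all TPM, against 22.2% to 28.1%. All 4 AML12 groups shared 1 fit, so the spread of these libraries also enters the p-values of rMSA against vehicle. Many log2 fold changes that use insulin libraries 1 and 2 are also given without them. That leaves 1 insulin library, so comparisons with the insulin group are then read by effect size only. Counts and p-values from that fit are given for insulin against vehicle and for the interaction, and no conclusion is drawn from them. Changes were tested with limma on log2(TPM + 1) for genes that averaged 1 TPM or more, and rose or fell is written only at an adjusted p under 0.05. A fold change on that scale understates the change of a gene with a low level.

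In the liver all 10 genes were tested, of which 7 rose and 2 fell with rMSA. Of all 11398 genes tested, 21.8% rose and 8.38% fell. With a log2 fold change of at least 1 in either direction as a second condition, 6 of the 10 rose and 1 fell, against 8.61% of all genes. The rMSA livers did not overlap the saline livers in 9 of the 10, with 7 higher and 2 lower, against 32.7% higher and 13.0% lower of all genes. The median log2 fold change was 1.36 over the 10 and 0.12 over all genes. Cidea and Pnpla3 were under the 1 TPM mark in saline livers and passed it only through the rMSA livers. In whole liver, fewer cells of a type and less RNA per cell cannot be told apart.

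**Figure D1:**
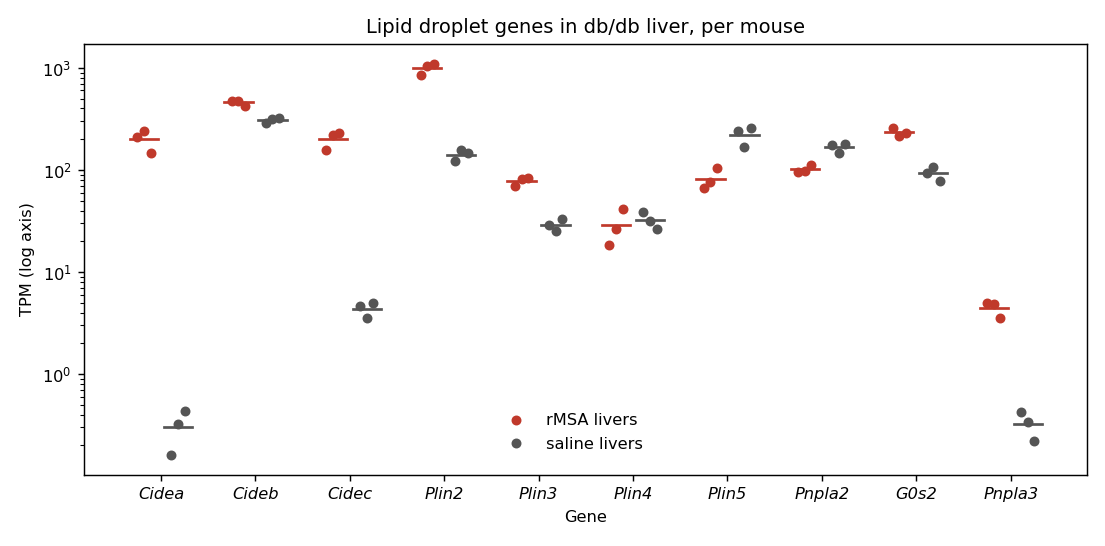
TPM (log axis) of the 10 lipid droplet genes in each rMSA (left of each pair) and saline (right) db/db liver, with points for mice and lines for means of 3. Cidea is at 147 to 238 TPM in rMSA livers and at 0.16 to 0.43 TPM in saline livers, Plin5 and Pnpla2 are lower in every rMSA liver, and only Plin4 overlaps.

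The CIDE genes, which promote droplet fusion and growth, all rose. Cidea (chromosome 18, 67343564 to 67367794, plus strand, GRCm38) changed most. Cidea had 211.98, 237.91 and 146.98 TPM in rMSA livers, against 0.16, 0.32 and 0.43 TPM in saline livers. Every rMSA liver was far above every saline liver, and the log2 fold change of 7.24 ± 0.19 (SE, n = 3 each; limma adjusted p = 1.48e-06) was the highest of the 11398 genes tested. Because the saline level was so low, its size depended on the pseudocount, with 8.98 when 0.1 TPM and 5.24 when 5 TPM was added in place of 1. Cidec (also called Fsp27), whose product enlarges droplets, had 155.61, 221.25 and 227.46 TPM in rMSA livers, against 4.66, 3.53 and 4.94 TPM in saline livers. The groups were far apart, and the log2 fold change of 5.22 ± 0.17 (SE; adjusted p = 2.01e-06) was rank 3 of all genes.

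Cideb, which in liver also acts in the loading of lipid onto very low density lipoprotein (VLDL), changed least of the CIDE genes. It had 475.09, 477.15 and 426.69 TPM in rMSA livers, against 287.28, 318.30 and 326.10 TPM in saline livers. The groups did not overlap, and the log2 fold change was 0.56 ± 0.10 (SE; adjusted p = 0.00371). After each library was centred on its median it was 0.42 and no longer passed (adjusted p = 0.0795). Cideb shares 76.3% of its exonic bases with Nop9 on the opposite strand, and the strand setting of the counting is not stated, so reads of both genes cannot be told apart. Nop9 was far lower in the liver, with 14.31, 14.90 and 15.01 TPM in rMSA livers and 17.38, 15.62 and 16.91 TPM in saline livers.

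The make-up of the CIDE genes therefore differed between the groups. Cideb made up 56.4%, 51.0% and 53.3% of their summed TPM in rMSA livers, against 98.3%, 98.8% and 98.4% in saline livers. Cidea took 25.2%, 25.4% and 18.3% in rMSA livers and at most 0.130% in a saline liver, and Cidec took 18.5%, 23.6% and 28.4% in rMSA livers and 1.6%, 1.10% and 1.49% in saline livers. Since fat cells also express Cidea and Cidec, adipocyte markers were looked at beside them. The 4 of 7 with a row (Adipoq, Retn, Cfd and Slc7a10) summed to 0.70 to 1.52 TPM in rMSA livers and 0 to 0.32 TPM in saline livers, and most of the sum in rMSA livers was Cfd. Retn had 0.32, 0.15 and 0 TPM in rMSA livers and 0.17, 0 and 0 TPM in saline livers. Cfd had 1.07, 1.37 and 0.60 TPM in rMSA livers and was listed at 0 in all 3 saline livers, whereas Adipoq was listed at 0 in all 3 rMSA livers and had 0.15, 0.08 and 0 TPM in saline livers. Their part in the CIDE results was not tested.

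Among the perilipins, Plin2 was the most abundant in rMSA livers and Plin5 in saline livers. Plin2, the droplet coat protein that accumulates with lipid in fatty liver, had 858.94, 1044.86 and 1101.66 TPM in rMSA livers, against 121.19, 155.38 and 146.50 TPM in saline livers. The lowest rMSA liver was well above the highest saline liver, and the log2 fold change was 2.82 ± 0.14 (SE; adjusted p = 9.00e-06). Plin3 (TIP47), which moves from the cytosol onto new droplets, had 69.10, 81.55 and 82.65 TPM in rMSA livers, against 28.95, 25.35 and 32.99 TPM in saline livers. It was higher in each rMSA liver, by 1.39 ± 0.13 on the log2 scale (SE; adjusted p = 0.000152).

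Plin5 moved in the other direction. Its product binds Pnpla2 and Abhd5 on droplets and ties droplets to mitochondria in tissues that burn fat. It had 66.26, 76.43 and 104.05 TPM in rMSA livers, against 239.32, 167.52 and 256.27 TPM in saline livers. Each rMSA liver was below each saline liver, and the log2 fold change was -1.42 ± 0.20 (SE; adjusted p = 0.00143). Plin4, a perilipin of fat cells and muscle, did not pass, with 18.42, 26.60 and 41.49 TPM in rMSA livers and 38.77, 31.80 and 26.26 TPM in saline livers. The groups overlapped, and the log2 fold change of -0.21 had a 95% confidence interval of -0.83 to 0.40 (adjusted p = 0.598).

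Plin2 to Plin5 summed to 1013, 1229 and 1330 TPM in rMSA livers, against 428, 380 and 462 TPM in saline livers. Plin2 made up 84.8%, 85.0% and 82.8% of that sum in rMSA livers and 28.3%, 40.9% and 31.7% in saline livers, whereas Plin5 made up 6.54%, 6.22% and 7.82% in rMSA livers and 55.9%, 44.1% and 55.5% in saline livers. Plin3 rose in step with the sum and kept a similar share, 6.21% to 6.82% in rMSA livers and 6.67% to 7.14% in saline livers.

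The genes of triglyceride lipolysis moved in opposite directions. Pnpla2 (ATGL) had 95.44, 98.39 and 110.95 TPM in rMSA livers, against 173.96, 146.29 and 179.52 TPM in saline livers. It was lower in every rMSA liver, with a log2 fold change of -0.71 ± 0.11 (SE; adjusted p = 0.00251). G0s2, the inhibitor of ATGL, had 258.03, 213.92 and 228.79 TPM in rMSA livers, against 93.97, 106.74 and 78.55 TPM in saline livers. All 3 rMSA livers were higher, with a log2 fold change of 1.32 ± 0.13 (SE; adjusted p = 0.000237). The ratio of G0s2 TPM to Pnpla2 TPM was 2.70, 2.17 and 2.06 in rMSA livers, against 0.54, 0.73 and 0.44 in saline livers.

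Pnpla3 (adiponutrin), a droplet protein related to ATGL that in human liver is tied to fat content, had 4.98, 4.86 and 3.51 TPM in rMSA livers, against 0.42, 0.34 and 0.22 TPM in saline livers. It was low in both groups but higher in each rMSA liver, with a log2 fold change of 2.03 ± 0.17 (SE; adjusted p = 9.73e-05). With 0.1 TPM added in place of 1 the value was 3.43, and with 5 TPM it was 0.82.

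The order of levels also differed between the groups. In rMSA livers Plin2 came first with a mean of 1002 TPM, then Cideb (460 TPM), G0s2 (234 TPM), Cidec (201 TPM), Cidea (199 TPM), Pnpla2 (102 TPM), Plin5 (82.2 TPM), Plin3 (77.8 TPM), Plin4 (28.8 TPM) and Pnpla3 (4.45 TPM). The ranges of G0s2 and Cidec, of Cidec and Cidea, of Pnpla2 and Plin5 and of Plin5 and Plin3 overlapped between mice. Of these pairs only Pnpla2 and Plin5 kept the same order within every rMSA liver. In saline livers Cideb came first (311 TPM), then Plin5 (221 TPM), Pnpla2 (167 TPM), Plin2 (141 TPM), G0s2 (93.1 TPM), Plin4 (32.3 TPM), Plin3 (29.1 TPM), Cidec (4.38 TPM), Pnpla3 (0.33 TPM) and Cidea (0.30 TPM). There the ranges of Plin5 and Pnpla2, of Pnpla2 and Plin2, of Plin4 and Plin3 and of Pnpla3 and Cidea overlapped. Of these pairs only Plin5 and Pnpla2 kept the same order within every saline liver.

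Markers of other cell types moved with the treatment as well. Summed stellate cell and fibroblast markers were at 246 to 326 TPM in rMSA livers and 108 to 230 TPM in saline livers, and 4 of the 6 rose. Cholangiocyte markers were at 8.83 to 14.1 TPM in rMSA livers and 4.24 to 7.15 TPM in saline livers, and 2 of the 4 rose. Macrophage markers, at 276 to 414 TPM in rMSA livers and 263 to 413 TPM in saline livers, overlapped in their sum, and 1 of the 6, Cd68, rose (0.69, adjusted p = 0.0110). Endothelial markers were at 70.4 to 85.1 TPM in rMSA livers and 77.3 to 112 TPM in saline livers, and 0 of the 4 passed in limma, with Lyve1 lower at an unadjusted p of 0.0259. Of the hepatocyte markers 2 rose (Ttr and Apoa1) and 3 fell (Cps1, Hnf4a and Cyp2e1). The part of these cell types in the lipid droplet results was not tested.

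**Figure D2:**
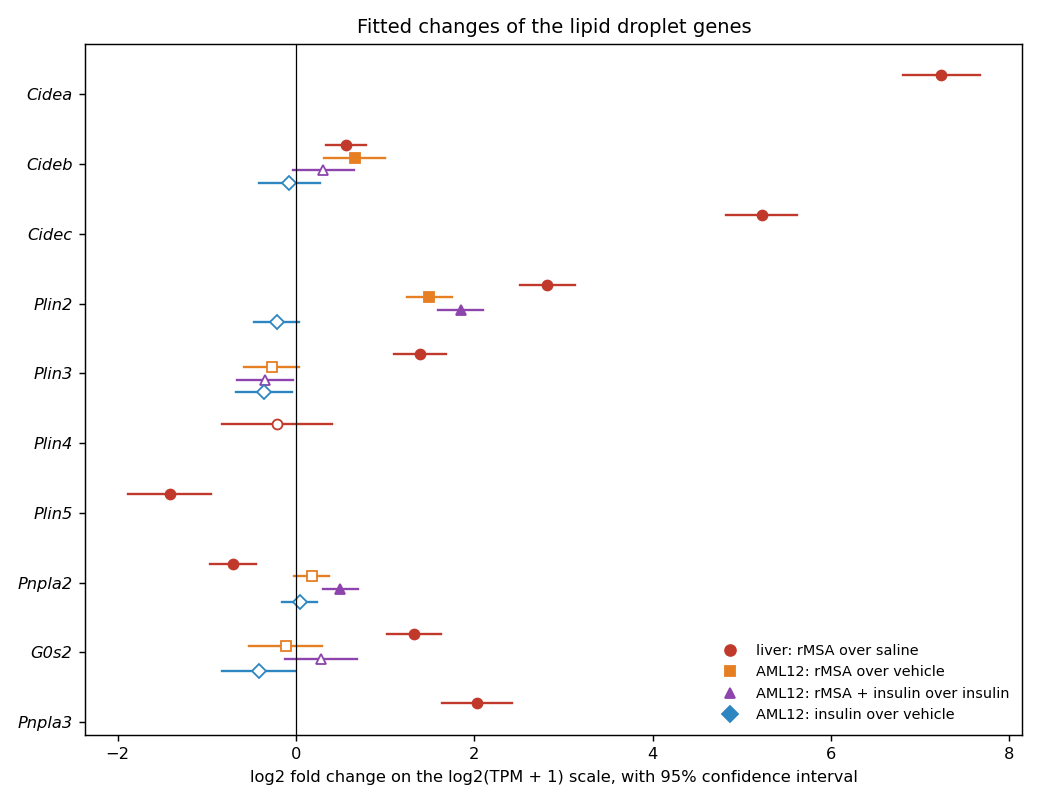
Fitted log2 fold changes on the log2(TPM + 1) scale with 95% confidence intervals, for the tested lipid droplet genes in 4 comparisons, with filled symbols at an adjusted p under 0.05. Plin2 is filled in the liver (2.82) and in both AML12 comparisons of rMSA (1.49 and 1.85), while no symbol of insulin over vehicle is filled.

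In AML12 cells 5 of the 9 genes with a row reached the 1 TPM mean, namely Plin2, Plin3, Cideb, G0s2 and Pnpla2. Cidec, Plin4, Plin5 and Pnpla3 did not. With rMSA against vehicle 2 of the 5 rose, against 5.90% of the 10826 genes tested. None of the 5 fell in limma, against 1.89% of all genes. At an unadjusted p under 0.05 limma gave 2 higher and 0 lower, against 13.3% and 5.56% of all genes. Only Plin2 rose with a log2 fold change of at least 1, which 1.81% of all genes reached in either direction. The libraries did not overlap in 4 of the 5, with 3 higher and 1 lower with rMSA, against 25.5% higher and 14.2% lower of all genes. The AML12 table was normalized apart from the liver table, so no test was made between them.

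Plin2 showed the clearest difference in these cells. It had 950.09, 963.18 and 995.41 TPM with rMSA + insulin, 879.61, 913.33 and 852.36 TPM with rMSA, 290.64, 214.08 and 310.64 TPM with insulin and 313.48, 317.05 and 305.93 TPM with vehicle. All 6 libraries with rMSA were far above all 6 without it. Against vehicle the log2 fold change of rMSA was 1.49 ± 0.11 (SE; adjusted p = 2.50e-05), a 2.82-fold higher mean, and against insulin that of rMSA + insulin was 1.85 ± 0.11 (SE; adjusted p = 4.24e-06). Without insulin libraries 1 and 2 that comparison gave 1.64.

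Plin3 had the next highest mean in all 4 groups. It had 154.37, 137.25 and 158.48 TPM with rMSA + insulin, 200.36, 207.67 and 200.36 TPM with rMSA, 192.85, 148.64 and 243.52 TPM with insulin and 243.42, 248.60 and 243.75 TPM with vehicle. Each rMSA library was below each vehicle library, but the log2 fold change of -0.27 (95% confidence interval -0.59 to 0.04; adjusted p = 0.358) did not pass. When only the rMSA and vehicle libraries were fitted it passed (adjusted p = 0.00289), as it did after median centring (-0.34, adjusted p = 0.0419). The insulin libraries spread widely, and rMSA + insulin against insulin gave -0.35 (adjusted p = 0.122), or -0.70 without insulin libraries 1 and 2.

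**Figure D3:**
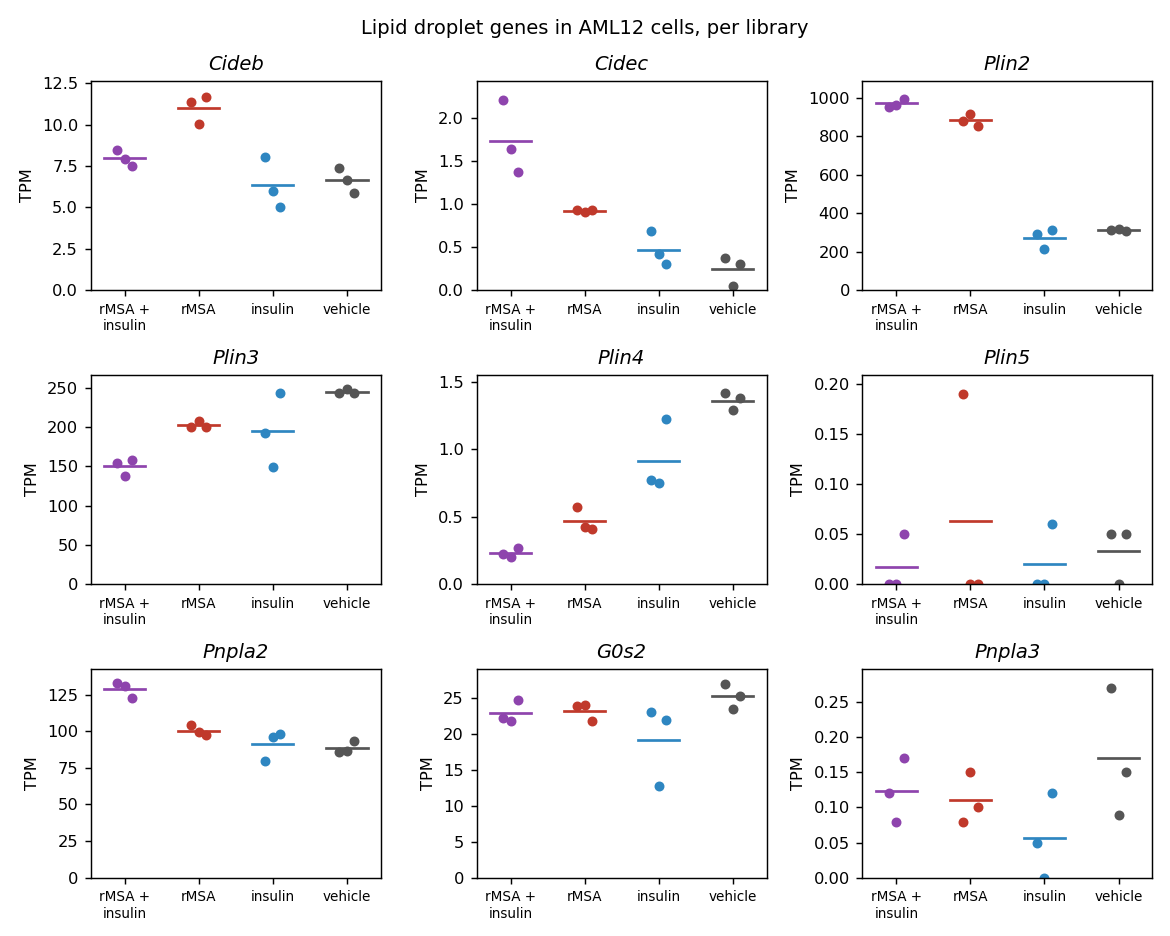
TPM of the 9 lipid droplet genes with a row in each AML12 library, one panel per gene and each axis from 0, with points for libraries and lines for means of 3. Plin2 is at 852 to 995 TPM in the 6 libraries with rMSA and at 214 to 317 TPM in the 6 without, and Plin5 and Pnpla3 are at most 0.19 and 0.27 TPM in every library.

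Plin2 made up 86.0%, 87.5% and 86.2% of the summed TPM of Plin2 to Plin5 with rMSA + insulin, 81.4%, 81.4% and 80.9% with rMSA, 60.0%, 58.9% and 55.9% with insulin and 56.1%, 55.9% and 55.5% with vehicle. Nearly all of the rest was Plin3, and a gene that was abundant in the liver was almost missing here: Plin5 was at 0 to 0.19 TPM and was listed at 0 in 7 of the 12 libraries. Plin4 had 0.22, 0.20 and 0.27 TPM with rMSA + insulin, 0.57, 0.42 and 0.41 TPM with rMSA, 0.77, 0.75 and 1.23 TPM with insulin and 1.42, 1.29 and 1.38 TPM with vehicle. It was lower in every rMSA library than in any library without rMSA. When the filter on low values was left out its log2 fold change was -0.69 for rMSA against vehicle (adjusted p = 0.00109). For rMSA + insulin against insulin it was -0.63 (adjusted p = 0.00122), or -0.86 without insulin libraries 1 and 2.

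Cidec was also under the filter. It had 2.20, 1.63 and 1.37 TPM with rMSA + insulin, 0.93, 0.90 and 0.93 TPM with rMSA, 0.68, 0.42 and 0.30 TPM with insulin and 0.37, 0.05 and 0.30 TPM with vehicle. Its levels were low, but each library with rMSA was above each library without it. Without the filter the log2 fold change was 0.64 for rMSA against vehicle (adjusted p = 0.0164). For rMSA + insulin against insulin it was 0.90 (adjusted p = 0.00174), or 1.06 without insulin libraries 1 and 2.

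Cideb had 8.47, 7.92 and 7.52 TPM with rMSA + insulin, 11.37, 10.05 and 11.71 TPM with rMSA, 8.04, 5.99 and 5.00 TPM with insulin and 7.36, 6.69 and 5.88 TPM with vehicle. The rMSA libraries were the highest and did not overlap any other group. Against vehicle the log2 fold change was 0.66 ± 0.16 (SE; adjusted p = 0.0254). It no longer passed when any 1 of the 6 libraries was left out (adjusted p 0.0544 to 0.121) or after median centring (0.59, adjusted p = 0.184). Nop9, which shares exonic bases with it, was above Cideb in these cells, with 20.55, 19.46 and 18.67 TPM with rMSA and 16.69, 18.07 and 18.82 TPM with vehicle, and its part in the Cideb values was not tested. For rMSA + insulin against insulin Cideb gave 0.31 (adjusted p = 0.211), or 0.58 without insulin libraries 1 and 2.

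Pnpla2 had 133.24, 131.13 and 122.91 TPM with rMSA + insulin, 104.35, 99.36 and 97.12 TPM with rMSA, 79.69, 96.39 and 98.14 TPM with insulin and 85.82, 86.24 and 93.54 TPM with vehicle. The rMSA + insulin libraries were above all others, and each rMSA library was above each vehicle library. In rMSA + insulin against insulin Pnpla2 rose by 0.50 ± 0.09 on the log2 scale (SE; adjusted p = 0.00334), but not after median centring (0.24, adjusted p = 0.429). Without insulin libraries 1 and 2 the value was 0.39. For rMSA against vehicle it gave 0.18 (95% confidence interval -0.02 to 0.37; adjusted p = 0.332).

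G0s2 had 22.29, 21.86 and 24.67 TPM with rMSA + insulin, 23.89, 24.00 and 21.79 TPM with rMSA, 23.02, 12.76 and 21.89 TPM with insulin and 27.00, 23.48 and 25.34 TPM with vehicle. The groups lay close together apart from insulin library 2. For rMSA against vehicle the log2 fold change was -0.12 (95% confidence interval -0.52 to 0.29; adjusted p = 0.894). The ratio of G0s2 TPM to Pnpla2 TPM was 0.17, 0.17 and 0.20 with rMSA + insulin, 0.23, 0.24 and 0.22 with rMSA, 0.29, 0.13 and 0.22 with insulin and 0.31, 0.27 and 0.27 with vehicle. Pnpla3 was at 0 to 0.27 TPM in all 12 libraries.

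**Figure D4:**
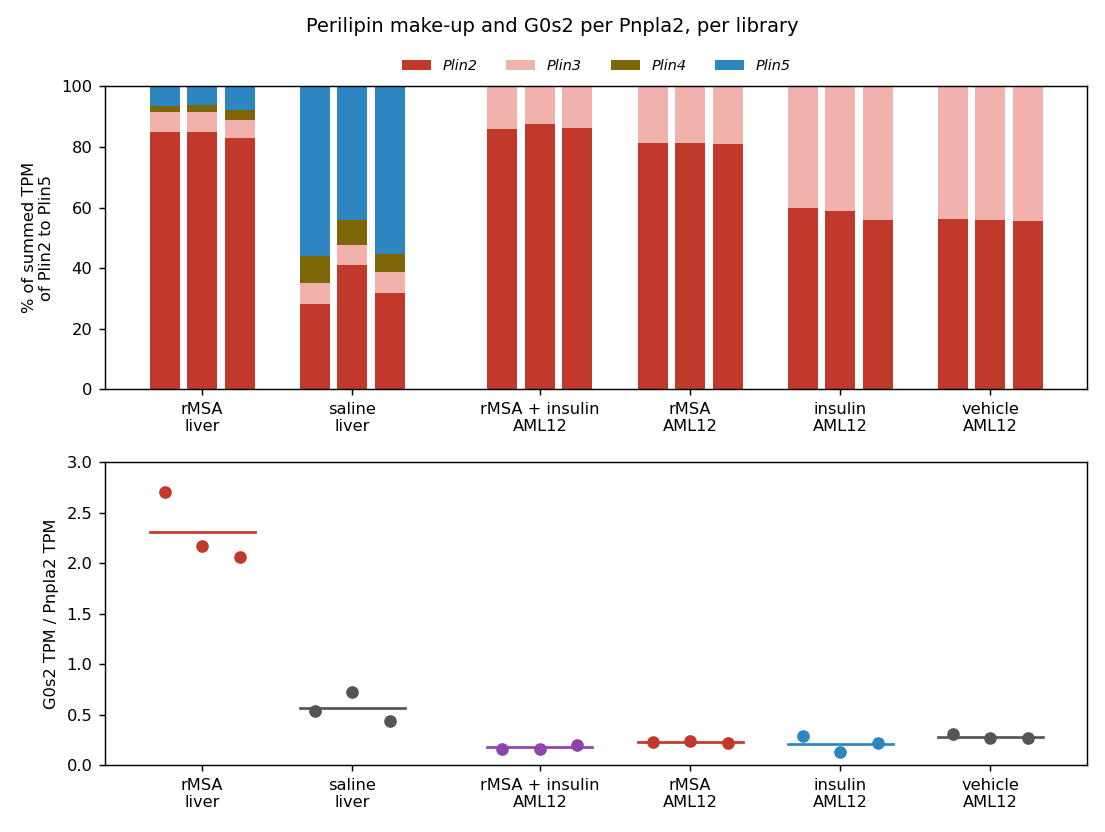
Upper panel, each perilipin as a percent of the summed TPM of Plin2 to Plin5, with 1 bar per library. Lower panel, G0s2 TPM over Pnpla2 TPM, with points for libraries and lines for means of 3. Plin2 makes up 82.8% to 85.0% in rMSA livers and 28.3% to 40.9% in saline livers, and the G0s2 ratio is 2.06 to 2.70 in rMSA livers and 0.44 to 0.73 in saline livers.

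Over these 5 genes, rMSA + insulin against insulin raised 2 (Plin2 and Pnpla2), against 14.5% of all genes, and lowered none, against 2.73% of all genes. At an unadjusted p under 0.05 limma gave 2 higher and 1 lower, against 25.5% and 5.22% of all genes. Without insulin libraries 1 and 2 the median over all genes was -0.13 on the log2 scale in that comparison. Calls were not counted there, since 1 insulin library is left. For the same reason, counts for insulin against vehicle without these libraries cannot decide whether insulin had an effect. For insulin against vehicle 0 of the 5 passed in either direction, as did 0% of all genes higher and 0% lower, while at an unadjusted p under 0.05 limma gave 2 of the 5 lower (Plin3 and G0s2) and, of all 10826 genes, 452 higher (4.18%) and 3517 lower (32.5%). Without insulin libraries 1 and 2, 0 of the 5 passed, against 0.120% higher and 0.0277% lower of all genes, and at an unadjusted p under 0.05 limma gave 0 higher and 1 lower. With all libraries the median over all genes was -0.30 on the log2 scale in that comparison. For rMSA + insulin against rMSA 1 of the 5 rose, against 2.95% of all genes, and none fell, against 1.10% of all genes, with 1 higher and 2 lower at an unadjusted p under 0.05, against 11.2% and 15.7% of all genes. That gene was Pnpla2 at 0.36 ± 0.09 (SE; adjusted p = 0.0496), which no longer passed when any 1 of its 6 libraries was left out (adjusted p 0.118 to 0.208). Plin2 differed by 0.14 (95% confidence interval -0.12 to 0.39; adjusted p = 0.408) and Plin3 by -0.43 (95% confidence interval -0.75 to -0.12; adjusted p = 0.106). Without insulin libraries 1 and 2 in the fit, Pnpla2 (adjusted p = 0.00182) and Plin2 (adjusted p = 0.0275) were higher and Plin3 (adjusted p = 0.000883) and Cideb (adjusted p = 0.00886) lower, and 14.4% of all genes were higher and 36.8% lower. These comparisons share their libraries with each other and are not independent.

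The interaction tested whether the effect of rMSA differed with insulin present. It passed for 0 of the 5 genes, against 0.0369% of all genes, and at an unadjusted p under 0.05 limma gave 1 higher and 0 lower, against 5.61% and 0.841% of all genes, namely Pnpla2 at 0.32 (95% confidence interval 0.04 to 0.60; adjusted p = 0.693). For Plin2 the interaction was 0.35 (95% confidence interval -0.004 to 0.71; adjusted p = 0.776). The fit without insulin libraries 1 and 2 holds 1 insulin library, so its p-values and counts cannot decide whether the interaction differed from 0. Without insulin libraries 1 and 2 the values were 0.21 for Pnpla2 (adjusted p = 0.185) and 0.14 for Plin2 (adjusted p = 0.227), and 0 of the 5 passed, against 0.0554% higher and 0.00924% lower of all genes, with 0 higher and 1 lower at an unadjusted p under 0.05.

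Other genes of the same pathway were looked at next to these 10. The list counts stand against 21.8% of all genes higher, 8.38% lower and a median log2 fold change of 0.12 in the liver, against 5.90% higher and 1.89% lower for rMSA over vehicle in AML12 cells, and against 14.5% higher and 2.73% lower for rMSA + insulin over insulin. Of 11 other lipases and lipolysis regulators, 8 rose and none fell in rMSA livers, with a median log2 fold change of 0.73. They included Ces1d, a carboxylesterase that breaks down triglyceride (1.53, adjusted p = 5.93e-05), Mgll, the monoglyceride lipase (1.86, adjusted p = 7.02e-05), and Lipa, the lysosomal acid lipase (1.47, adjusted p = 0.000101). Abhd5, the coactivator of ATGL, was at 19.34, 19.11 and 21.92 TPM in rMSA livers and 14.61, 16.86 and 13.29 TPM in saline livers (0.41, adjusted p = 0.0422). Lipe, the hormone-sensitive lipase (-0.31, adjusted p = 0.175), and Hilpda, a further inhibitor of ATGL (0.49, adjusted p = 0.0771), did not pass in the liver.

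In AML12 cells Hilpda was the gene of that list that rose with rMSA, 1 of 6 tested. It had 81.02, 87.00 and 98.68 TPM with rMSA + insulin, 67.04, 75.09 and 70.63 TPM with rMSA, 26.07, 21.40 and 29.86 TPM with insulin and 30.16, 29.95 and 27.00 TPM with vehicle. Every library with rMSA was above every library without it, as for Plin2. The log2 fold change was 1.26 for rMSA against vehicle (adjusted p = 0.000123). For rMSA + insulin against insulin it was 1.75 (adjusted p = 9.51e-06), or 1.54 without insulin libraries 1 and 2. Abhd5 (0.02, adjusted p = 0.985) and Lipe (0.18, adjusted p = 0.439) did not pass with rMSA against vehicle.

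Of 13 other droplet proteins 5 rose and 1 fell in the liver, with a median of 0.20 that lay close to the 0.12 of all genes. Nsdhl, an enzyme of cholesterol synthesis (1.98, adjusted p = 1.98e-05), Cyb5r3, a cytochrome b5 reductase (1.32, adjusted p = 9.16e-05), and Acsl3, which activates fatty acids on new droplets (1.63, adjusted p = 0.00177), rose. Hsd17b13, a liver droplet enzyme, did not pass (0.51, adjusted p = 0.0726). In AML12 cells Mettl7b (0.70, adjusted p = 0.00779) and Cyb5r3 (0.28, adjusted p = 0.0178) rose with rMSA, 2 of 13, and both also rose in rMSA + insulin against insulin, while Hsd17b13 did not pass (-0.12, adjusted p = 0.916).

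Of 18 genes of triglyceride synthesis and droplet formation 7 rose and 3 fell in the liver, with a median of 0.25. Gpam, which starts glycerolipid synthesis in mitochondria (2.58, adjusted p = 2.50e-06), and Fitm1, which helps droplets bud (2.37, adjusted p = 4.27e-05), rose, and Gpat4, a glycerol-phosphate acyltransferase of the endoplasmic reticulum, fell (-1.61, adjusted p = 6.59e-05). Dgat2, which makes triglyceride (-0.07, adjusted p = 0.735), and Bscl2 (seipin), which acts where droplets form (0.19, adjusted p = 0.279), did not pass. In AML12 cells 1 of 14 rose with rMSA, a share near the 5.90% of all genes. It was Mogat2 (1.0, adjusted p = 0.000661), at 2.04 to 2.38 TPM with rMSA and 0.40 to 0.77 TPM with vehicle. Mogat2 averaged 0.60 TPM with vehicle and 0.52 TPM with insulin, so it passed the 1 TPM mark only through the libraries with rMSA. Dgat2 (0.37, adjusted p = 0.0747) and Bscl2 (-0.03, adjusted p = 0.979) did not pass there. With rMSA + insulin against insulin 4 of the 14 rose and none fell, Dgat2 among them (0.76, adjusted p = 0.00102). When insulin libraries 1 and 2 were left out, Dgat2 was at 0.51.

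Of 7 genes of VLDL assembly and secretion 3 rose in the liver and none fell, with a median of 0.20: Mttp, which loads lipid onto apolipoprotein B (1.19, adjusted p = 7.08e-05), Sar1b (0.76, adjusted p = 0.000995) and Surf4 (0.41, adjusted p = 0.0123). In AML12 cells Apob rose with rMSA against vehicle, 1 of 7 (1.18, adjusted p = 0.0217). It did not pass in rMSA + insulin against insulin (0.87, adjusted p = 0.0511, or 0.22 without insulin libraries 1 and 2). There Tm6sf2, which acts in VLDL lipid loading, rose, 1 of 7 (0.52, adjusted p = 0.00850, or 0.56 without these libraries). Of 13 transcription factors of lipid metabolism 6 rose and 4 fell in the liver, with a median of 0.39. Srebf1, the activator of fatty acid synthesis (2.18, adjusted p = 0.000102), and Pparg, the fat cell receptor that drives Cidec and Plin2 in fatty liver of mice (1.20, adjusted p = 0.000762), rose, Esrra, a receptor that acts on mitochondrial genes, fell (-0.62, adjusted p = 0.00455), and Ppara did not pass (0.55, adjusted p = 0.0543). With rMSA against vehicle in AML12 cells 0 of 10 passed in limma, and 4 were under an unadjusted p of 0.05 (3 higher and 1 lower), Srebf1 among them (-0.54, adjusted p = 0.191, unadjusted p = 0.0299). Pparg and Ppara were under 1 TPM in nearly all libraries. Creb3l3 was also under the filter and was not tested. It was at 1.42 to 1.68 TPM with rMSA and 0.04 to 0.20 TPM with vehicle. With insulin present it was at 1.47 to 1.87 TPM with rMSA and 0.11 to 0.34 TPM without. With rMSA + insulin against insulin 3 of the 10 rose, Ppard, a nuclear receptor of fat oxidation (1.09, adjusted p = 0.000524), Cebpb (1.31, adjusted p = 0.0186) and Esrra (0.41, adjusted p = 0.0391). In the fit that left out insulin libraries 1 and 2 the values were 1.17 for Ppard, 0.64 for Esrra and 0.39 for Cebpb. They were -0.82 for Srebf1 and -0.66 for Ppargc1a. Ppard, Cebpb, Ppargc1a, Creb3l3 and Tm6sf2 were named after their values were seen.

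**Figure D5:**
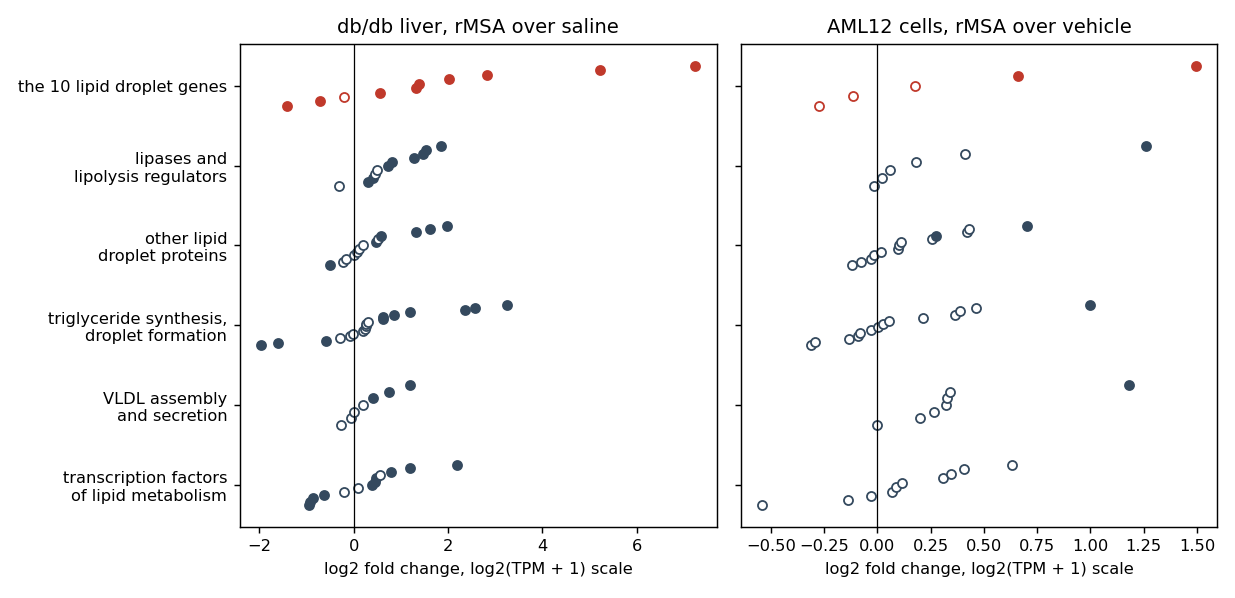
Fitted log2 fold changes with rMSA on the log2(TPM + 1) scale, in db/db liver (left) and AML12 cells (right, a narrower axis), for the tested lipid droplet genes and 5 lists of related genes, 1 point a gene, filled at an adjusted p under 0.05. Cidea (7.24) and Cidec (5.22) lie to the right of every gene of the related lists in the liver, and Plin2 (1.49) lies furthest right in the cells.

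Across the 12 AML12 libraries, the genes with a pattern most like that of Plin2 were Cxcl1 (Pearson r = 0.994), Hilpda (0.992) and Padi1 (0.992), and 514 genes had an r above 0.9. Those most like Pnpla2 were Dnm2 (0.990), Chpf (0.980) and Agpat1 (0.980), with 228 genes above 0.9, and those most like Cideb were Ost4 (0.948), Ctla2b (0.918) and Ak1 (0.912), with 4 genes above 0.9. These correlations of log2(TPM + 1) are a description, since the 12 libraries fall into 4 treatment groups and all values share their library.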

How the data were processed

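RNA was taken from 6 db/db livers and from 12 AML12 samples, and libraries were prepared after rRNA depletion and oligo(dT) selection. The values deposited are TPM, made by the authors from their reads, 1 table for liver and 1 for AML12, and per the submitters' notes used Trimmomatic 0.33, STAR 2.5.2b, featureCounts, Subread 1.6.0 and GRCm38. Those notes give no gene annotation, strand setting or TPM formula. TPM hold no read counts, so depth is unknown and count tests such as the study's could not be run. Groups come from the sample labels.

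Values were tested on log2(TPM + 1) with limma 3.58.1 in R 4.3.3 (mean-variance trend, Benjamini-Hochberg adjustment over all genes of a table with a mean of at least 1 TPM, 11398 in liver and 10826 in AML12), two-sided, with the 4 AML12 groups in 1 fit. The 2 tables were normalized separately and were not tested against each other. Tables were handled in Python 3.11.15 with pandas 2.3.3 and plotted with matplotlib 3.10.9. The fit was tested on simulated data. The text names all 10 genes and, of each list of related genes, up to 3 with the smallest p among those that passed in liver or in rMSA against vehicle, plus Abhd5, Lipe, Mgll, Hilpda, Hsd17b13, Bscl2, Dgat2, Ppara, Pparg and Srebf1. The genes and lists were chosen with earlier results of these data known. In liver the symbol Plin2 has 2 rows, and gene ID 11520 was used.

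Same-numbered libraries deviated together from their group means in rMSA against vehicle (r = 0.53, 0.14 and 0.58 for replicates 1, 2 and 3). Replicates 2 and 3 also did so in rMSA + insulin against insulin (r = 0.095, 0.79 and 0.80 for replicates 1, 2 and 3). A paired fit was therefore also made, and it changed no call in these comparisons. Alternatives were another pseudocount (0.1 or 5 TPM), no filter or a filter at 5 TPM, median centring, quantile normalization, rescaling without the 50 highest genes, robust variance, array weights, a replicate block, only the groups compared, leaving out each library, and leaving out insulin libraries 1 and 2. Leaving out these libraries for the lists of related genes, and together with the filter for Cidec and Plin4, was added after seeing the data.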

Additional observations from a re-analysis of the deposited data

Results flagged for a closer look

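Plin3 and Pnpla2 differed in opposite directions with rMSA in the 2 systems, and the difference between the systems was not tested because their tables were normalized separately. The ratio of mean Plin3 TPM was 2.67 for rMSA over saline livers, where every rMSA liver was higher, and 0.827 for rMSA over vehicle in AML12 cells, where every rMSA library was lower. The ratio of mean Pnpla2 TPM was 0.61 for rMSA over saline livers, where every rMSA liver was lower, and 1.13 for rMSA over vehicle in AML12 cells, where every rMSA library was higher. Neither AML12 difference passed its own test in the main fit. Of 17 alternatives, Plin3 passed in 4 and Pnpla2 in 1.

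A second row with the symbol Plin2 in the liver table was not used for Plin2. RefSeq names its gene ID Gm12551, a transcribed pseudogene on chromosome 4 (86626857 to 86632221, GRCm38.p6) that overlaps Plin2. It had 0.29, 0.60 and 0.80 TPM in rMSA livers and was listed at 0 in all 3 saline livers.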

How the results depend on the processing

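In the liver 157 of 159 alternative values kept their direction and their side of the threshold; the exceptions were Cideb after median centring (above) and Plin4, which ranged from -0.51 to 0.059 as single mice were left out (0.059 without rMSA replicate 1). With a 5 TPM filter Pnpla3 could not be tested. In AML12 the calls moved more, and the cause was not tested. Median centring moved the median over all genes by over 0.1 in each comparison except rMSA against vehicle and put it between -0.04 and 0.10 in the AML12 comparisons of 2 groups. For rMSA against vehicle (2 higher, 0 lower), 1 was higher under median centring and quantile normalization and 1 was higher whichever library was left out, while 1 was lower with no filter, median centring, quantile normalization, array weights and only the groups compared. With no filter, 3 were higher in this and the next comparison, since Cidec was then tested and passed, and the 1 lower was Plin4. For rMSA + insulin against insulin (2 higher, 0 lower), 1 was higher under median centring and only the groups compared. There 1 was lower with no filter, median centring, quantile normalization, rescaling and array weights. The lower count was 0 to 1 as single libraries were left out (1 without insulin replicate 2). For rMSA + insulin against rMSA (1 higher, 0 lower), 0 were higher with a pseudocount of 0.1 TPM, median centring, robust variance, the replicate block (Pnpla2 adjusted p = 0.0859) and each library left out (0 to 0), 2 with array weights and without insulin libraries 1 and 2, and the lower count was 1 with quantile normalization, 3 with array weights, 2 with only the groups compared and 2 without insulin libraries 1 and 2. For insulin against vehicle (0 and 0), 2 were lower with array weights and 0 to 3 as single libraries were left out (3 without insulin replicate 3: Plin3, G0s2 and Plin2). Without insulin replicate 3 the median over all genes was -0.45 on the log2 scale. Shares of all genes called were not worked out for these alternatives. The interaction (0 and 0) gave 2 higher and 1 lower with array weights, whose estimation stopped before it converged. Signs turned for values that had not passed: in insulin against vehicle for Cideb (-0.07) to 0.32 with median centring, 0.38 with quantile normalization, 0.20 with array weights and -0.23 to 0.061 over single libraries left out, for Plin2 to 0.18 and Plin3 to 0.036 with median centring, and for Pnpla2 to -0.11 with array weights and -0.013 to 0.14 over single libraries; in rMSA + insulin against rMSA for G0s2 to 0.19 with median centring, 0.19 with quantile normalization, 0.025 with rescaling and -0.069 to 0.015 over single libraries; in rMSA + insulin against insulin for G0s2 to -0.013 with array weights; and in the interaction for G0s2 to -0.0047 with array weights and Plin3 to -0.26 to 0.10 over single libraries. The replicate block changed no other call. Outside rMSA against vehicle and rMSA + insulin against insulin, r of same-numbered libraries was -0.66 to 0.11. No source says what a shared number stands for.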
